A study of Homo sapiens with 63 samples.

Results

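The 7 human genes described here bring cysteine into the cell or make it, and turn it into glutathione: SLC7A11, CBS, CTH, GCLC, GCLM, GSS and GSR. They were picked by symbol from the 58336 genes of the deposited count table, by a rule that uses no measured value. The choice was made with earlier results of these data known. All 7 were among the 19352 genes that passed the filter on low counts. Cells take up cystine through an exchanger whose transport subunit is SLC7A11 (xCT), or make cysteine by transsulfuration, in which CBS joins homocysteine to serine and CTH splits the product. Glutamate-cysteine ligase, with the catalytic subunit GCLC and the modifier subunit GCLM, joins cysteine to glutamate in the rate-limiting step of glutathione synthesis, GSS adds glycine, and GSR reduces oxidised glutathione for reuse. Glutathione reacts with electrophiles such as the acyl glucuronides that carboxylic acid drugs form in the body.

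The cells were HEK293T, a human embryonic kidney line, expressing Halo, the self-labelling HaloTag protein that captures chloroalkane ligands. The study placed acyl glucuronides of 2 carboxylic acid drugs in these cells by way of Halo-targeted precursors, Ht-Pre-AG-ibuprofen and Ht-Pre-AG-ibufenac; ibufenac lacks the methyl group next to the carboxylic acid of ibuprofen. Total RNA depleted of ribosomal RNA was sequenced from 21 groups of 3 libraries, 63 in all. Each of 7 arms was sampled at 6, 12 and 18 h: DMSO (the vehicle), and ibuprofen and ibufenac each as bolus, photocaged and probe. Per the labels' protocols, precursors were given at 10 µM for 2 h, cells were washed, and light of 365 nm at 5 mW/cm2 was applied for 3 min. The labels used here do not say how the photocaged and the probe form differ, which arms received light, or what the bolus dose was, so these arms are named as labelled, and comparisons between the 2 drugs were made within 1 form at 1 time. Nor do they say that the 3 libraries of a group came from separate cultures, so the p-values measure the spread between these libraries, which may be technical.

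Libraries held between 12.1 M and 38.4 M estimated counts in genes, with a median of 19.6 M. Libraries from ibufenac bolus at 6 h (replicate 3) and 18 h (replicate 3) stood farthest from their group mates, with a root mean square log2 deviation of 0.39 and 0.406 against a median of 0.207. Levels are given as CPM, a gene's count scaled by edgeR to a common library total. All 6 kidney and neural lineage markers listed for HEK293T were tested, PAX2 at a median count of only 2 and LHX1 of 25. The 6 together summed to between 53.6 and 171 CPM. SALL1 among them fell with ibufenac photocaged (-0.32 on the log2 scale), ibuprofen probe (-0.26) and ibufenac probe (-0.44), and NEFL fell with ibufenac probe (-0.27); the part of this in the results was not tested. Hepatocyte, blood cell and fibroblast markers summed to at most 2.67, 0.489 and 5.93 CPM in any library, and COL1A1, the tested fibroblast marker, was lower with ibufenac probe (-0.6). Fewer cells of a kind and less RNA per cell cannot be told apart in such bulk libraries. Members' values below are in the order of replicates 1, 2 and 3. Differences are log2 ± standard error from 1 edgeR quasi-likelihood fit over all 63 libraries. Adjusted p is Benjamini-Hochberg over all tested genes, and a gene is called where it is under 0.05.

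On a per-length scale, the DMSO libraries at 6 h placed CBS highest and GCLM lowest. The deposited FPKM averaged 60.8 ± 6.4 (SD, n = 3) for CBS, 27.7 ± 1.6 for GSS, 24.7 ± 0.89 for CTH, 22.4 ± 1.7 for GSR, 13.6 ± 1.5 for GCLC, 9.52 ± 1.3 for SLC7A11 and 8.38 ± 1.9 for GCLM. GCLM and SLC7A11 were the only neighbours in this order whose libraries overlapped. CBS shares reads with CBSL, a near-identical second copy on the same chromosome, and took 47.5% to 76.7% of the pair's estimated counts, so its level is uncertain; the pair together reached 84.9 ± 11 FPKM. The genes lie on different chromosomes except CTH and GCLM, both on chromosome 1, and CBS and CBSL, on chromosome 21. In GRCh38 coordinates, SLC7A11 is at chr4:138164097-138242349 (minus strand), CTH at chr1:70411218-70439851 (plus), CBS at chr21:43053191-43076943 (minus), GCLC at chr6:53497341-53616970 (minus), GCLM at chr1:93885205-93909456 (minus), GSS at chr20:34928433-34956027 (minus) and GSR at chr8:30678061-30727999 (minus).

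SLC7A11, CTH and GCLM were called higher in all 4 photocaged and probe arms in the averages over time, GSS was called in the 2 probe arms, and GCLC and GSR in none. The time-averaged calls numbered 3 of 7 in ibuprofen photocaged, where 1.98% of all tested genes were called higher and 4.28% in either direction, and 3 of 7 in ibufenac photocaged, where 4.13% were called higher and 7.49% in either direction. They numbered 4 of 7 in ibuprofen probe (3.81% of all genes higher, 8.43% in either direction) and 4 of 7 in ibufenac probe (5.87% and 13.2%). All 14 of these calls were higher than DMSO. Since the 7 genes were chosen with earlier results of these data known, these counts beside the shares of all genes are description only. Neither bolus arm called any of the 7 in the averages, against 0.0258% of all genes for ibuprofen and 0.0103% for ibufenac, and the 95% intervals of the 14 bolus differences lay within -0.45 and 0.31 (smallest adjusted p 0.24 for ibuprofen, 0.458 for ibufenac; before adjustment 2 and 1 of the 7 passed 0.05, by DESeq2 0 and 0). Over single times, 24 of 126 differences were called, 20 higher and 4 lower. GCLM had 8 of them, CTH 6, SLC7A11 5, CBS 3 and GSS 2. At 6 h the calls were 3 of 7 genes in ibuprofen photocaged (0.992% of all genes in either direction), 3 in ibufenac photocaged (3.03%), 4 in ibuprofen probe (11.4%) and 3 in ibufenac probe (12.7%). At 12 h they were 1 in ibufenac photocaged (1.58%) and 4 in ibufenac probe (4.51%), and at 18 h 2 in ibuprofen photocaged (2.21%), 1 in ibufenac photocaged (2.86%), 2 in ibufenac probe (2.69%) and 1 in ibufenac bolus (5.03%). The other 8 arm-by-time comparisons held none of the 24 calls by edgeR: ibuprofen photocaged at 12 h (0.677% of all genes called), ibuprofen probe at 12 and 18 h (1.97% and 1.78%), ibuprofen bolus at 6, 12 and 18 h (0%, 0.0103% and 0.0723%) and ibufenac bolus at 6 and 12 h (0.0258% and 0%). Among their 56 differences, 9 passed 0.05 before adjustment and 2 by DESeq2.

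**Figure D1:**
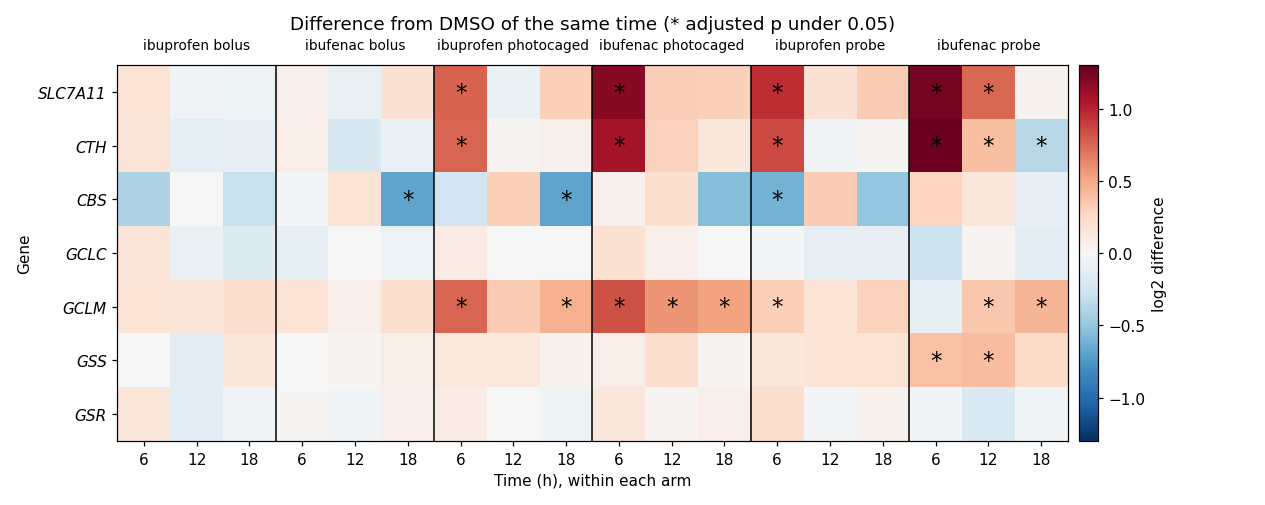
Log2 difference from DMSO of the same time, for the 7 genes (rows) in the 6 treated arms at 6, 12 and 18 h (columns), with an asterisk where the adjusted p was under 0.05. SLC7A11 and CTH at 6 h stand at 0.76 to 1.27 in the photocaged and probe arms and GCLM at 6 h at 0.76 and 0.83 in the photocaged arms, while the GCLC and GSR rows have no asterisk.

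Start-site sequences of the members called most often are shown first, because 2 transcription factor families are the textbook regulators of these genes. NRF2 binds antioxidant response elements, here searched as TGACNNNGC, and ATF4 binds composite elements with C/EBP proteins, here searched as TGATGCAA, both on either strand. The RefSeq promoter table (GRCh38.p14) held CTH, GCLM, GCLC and CBS, and SLC7A11, GSS and GSR were not matched in it. Among the 250 bases before the start of all 35116 promoters of the table, 10.9% held the first motif and 0.772% the second. GCLM and CTH are printed for their calls in all 4 photocaged and probe arms, 5′ to 3′ on the strand of the gene, up to the annotated start of the gene; capitals mark a match. GCLM (chr1:93909456-93909680, minus strand) had 1 match, GCTTAGTCA, which is TGACTAAGC on the other strand, 34 to 26 bases before the RefSeq start. CTH (chr1:70411018-70411217, plus strand) had none of either motif in its 250 bases.
GCLM: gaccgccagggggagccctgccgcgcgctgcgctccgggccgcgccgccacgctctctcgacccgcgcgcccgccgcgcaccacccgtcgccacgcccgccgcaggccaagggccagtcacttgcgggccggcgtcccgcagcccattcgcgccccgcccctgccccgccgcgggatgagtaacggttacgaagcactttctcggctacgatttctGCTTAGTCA
CTH: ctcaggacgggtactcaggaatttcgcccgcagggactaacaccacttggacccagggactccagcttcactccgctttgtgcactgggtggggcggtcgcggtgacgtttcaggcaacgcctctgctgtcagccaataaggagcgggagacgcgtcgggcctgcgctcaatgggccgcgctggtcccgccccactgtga
One of the 3 start sites listed for CBS held the first motif, as GCGCGGTCA, 83 to 75 bases before it, and GCLC held neither. These matches describe letters in a window; binding was not measured.

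SLC7A11, the cystine importer, was higher than DMSO at 6 h with both photocaged and both probe forms; at 12 h it was called in 1 of these arms and at 18 h in none. At 6 h the DMSO libraries had 95.1, 79.9 and 91.7 CPM. Ibuprofen photocaged had 152, 152 and 152 CPM, and ibufenac photocaged 209, 221 and 173. Ibuprofen probe had 162, 193 and 162 CPM, and ibufenac probe 229.8, 208 and 194. Every one of these 12 libraries lay above the highest DMSO library; at 6 h, groups that did not overlap with DMSO were found for 17.6%, 18%, 29.2% and 29.9% of all genes in ibuprofen photocaged, ibufenac photocaged, ibuprofen probe and ibufenac probe. The differences were 0.77 ± 0.10 (1.71-fold, adjusted p = 4.96e-07) for ibuprofen photocaged and 1.18 ± 0.10 (2.26-fold, 6.71e-13) for ibufenac photocaged. For the probe forms they were 0.96 ± 0.10 (1.94-fold, 1.7e-09) and 1.24 ± 0.10 (2.37-fold, 6.14e-14). Ibuprofen bolus had 98.8, 97.1 and 105.3 CPM and ibufenac bolus 83.7, 105.5 and 90.7; the first lay just above the DMSO libraries and the second overlapped them, and neither was called.

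By 12 h SLC7A11 was called only in ibufenac probe. DMSO had 72.8, 90.9 and 88.4 CPM and ibufenac probe 153, 148 and 122.5, without overlap (0.75, 1.68-fold, adjusted p = 4.6e-07). The share of all genes whose groups did not overlap with DMSO at 12 and 18 h is not given here. Separation at those times is thus description only. Ibufenac photocaged, at 100.3, 114 and 101, was also above every DMSO library but was not called (0.32, adjusted p = 0.0731). Ibuprofen photocaged, at 81.5, 82.2 and 73.3, lay within the DMSO range, and ibuprofen probe, at 93.5, 93.5 and 101, just above it, was not called. With GC and length trends removed, SLC7A11 at 12 h was called in ibufenac photocaged (0.40, adjusted p = 0.000737) and ibuprofen probe (0.29, 0.0191) as well. By 18 h none of the arms was called: DMSO had 71.4, 83.2 and 91.6 CPM and ibufenac probe 77.9, 89.5 and 86.7. The other 3 photocaged and probe arms lay between 94.5 and 108 CPM at 18 h, above the DMSO libraries, with differences of 0.31 to 0.33 and adjusted p of 0.0614 to 0.0679. With GC and length trends removed these were 0.15 (adjusted p = 0.325) in ibuprofen photocaged, 0.17 (0.227) in ibufenac photocaged and 0.21 (0.15) in ibuprofen probe.

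CTH, the enzyme that releases cysteine from cystathionine, rose in the same 4 arms as SLC7A11 at 6 h and was below DMSO at 18 h in 1 of them. At 6 h DMSO had 46.8, 45.6 and 45.3 CPM. Ibuprofen photocaged had 71.9, 84 and 77.3 CPM and ibufenac photocaged 110.1, 96.3 and 84.5. Ibuprofen probe had 79.7, 90.2 and 80.2 CPM and ibufenac probe 125, 104 and 103. The photocaged and probe groups all lay clear of DMSO. Differences were 0.76 ± 0.09 (1.69-fold, adjusted p = 1.84e-07) and 1.08 ± 0.09 (2.11-fold, 6.71e-13) for ibuprofen and ibufenac photocaged, and 0.86 ± 0.09 (1.82-fold, 2.54e-09) and 1.27 ± 0.09 (2.41-fold, 1.94e-15) for the 2 probe arms. The 6 bolus libraries at 6 h, between 46.5 and 54, were not called.

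At 12 h CTH was called only in ibufenac probe, at 65.5, 63.4 and 60.4 CPM against 43.8, 53.3 and 47.3 in DMSO (0.39, 1.31-fold, adjusted p = 0.0044), and this call was lost without DMSO replicate 1 (0.33, 0.0611). Ibufenac photocaged, at 59.9, 59.3 and 59.2 CPM, was not called (0.30, adjusted p = 0.0641). With GC and length trends removed it was called (0.30, 0.0294). At 18 h CTH in ibufenac probe was below DMSO, at 40, 45.3 and 42.4 CPM against 56.3, 58.7 and 49.3. That drop of -0.36 (0.777-fold, adjusted p = 0.0159) was not called without DMSO replicate 1 or 2 or without ibufenac probe replicate 1 or 3 (-0.36 to -0.31, adjusted p 0.0569 to 0.0918). Against ibufenac bolus at 18 h, at 55.6, 48.8 and 49.7 CPM, the CTH difference was -0.27 and not called. DMSO itself was higher at 18 h than at 6 h for CTH (0.26, adjusted p = 0.0408), a call lost when any of 5 DMSO libraries was left out, in a comparison where 17.5% of all genes were called.

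The later loss of the 6 h rise was tested directly, as the difference from DMSO at 18 h minus that at 6 h. For CTH it was -0.7 ± 0.13 in ibuprofen photocaged, -0.93 ± 0.13 in ibufenac photocaged, -0.84 ± 0.13 in ibuprofen probe and -1.63 ± 0.13 in ibufenac probe (adjusted p 0.00376, 1.48e-05, 0.00039 and 3.62e-13). For SLC7A11 it was called with ibufenac, at -0.87 ± 0.14 for photocaged (0.000195) and -1.2 ± 0.14 for probe (2.1e-08). With ibuprofen the SLC7A11 values were -0.46 (0.235) and -0.62 (0.0712), which were not called. On the log2(FPKM + 1) scale, CTH in ibuprofen photocaged (-0.52, adjusted p = 0.172) and SLC7A11 in ibufenac photocaged (-0.62, 0.129) were not called. With GC and length trends removed, SLC7A11 was called with ibuprofen too, at -0.62 (adjusted p = 0.00111) for photocaged and -0.63 (0.0017) for probe, and a difference between the drugs in photocaged form is not shown. Of all tested genes, 0.0568%, 0.636%, 0.0362% and 7.98% were called in this contrast in ibuprofen photocaged, ibufenac photocaged, ibuprofen probe and ibufenac probe.

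**Figure D2:**
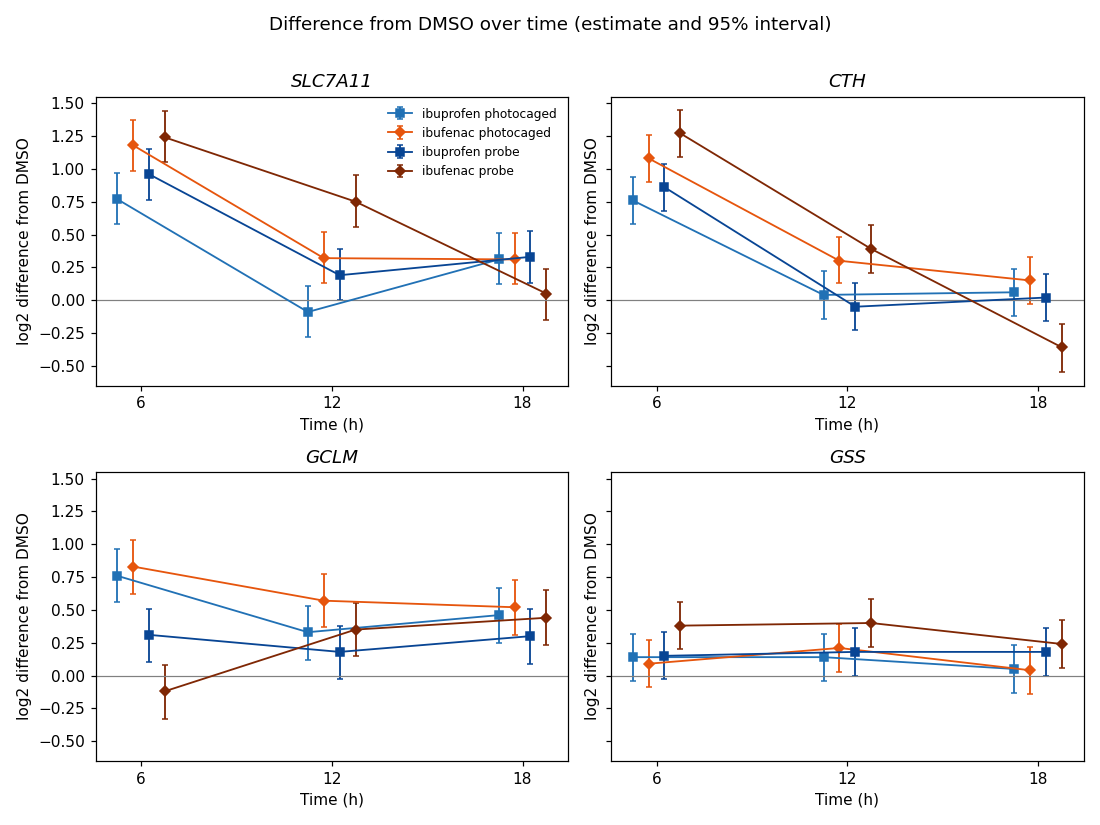
Log2 difference from DMSO (points, with 95% intervals) at 6, 12 and 18 h for SLC7A11, CTH, GCLM and GSS, 1 line per arm. SLC7A11 and CTH lie between 0.76 and 1.27 at 6 h and between -0.36 and 0.33 at 18 h, while GCLM in ibufenac probe starts at -0.12 and ends at 0.44.

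CBS, the first transsulfuration enzyme, was not called higher in any arm, and its 3 calls against DMSO were lower. At 6 h DMSO had 111, 138 and 139.9 CPM and ibuprofen probe 79.2, 78.4 and 97.2, below every DMSO library (-0.61 ± 0.19, 0.655-fold, adjusted p = 0.0293). Ibufenac probe, at 148, 166 and 158 CPM, was above the DMSO libraries and not called (0.28, adjusted p = 0.37). At 18 h DMSO had 153, 119 and 152 CPM, against 96, 100.3 and 67.8 in ibuprofen photocaged (-0.69, adjusted p = 0.0427) and 103, 109 and 50.4 in ibufenac bolus (-0.69, adjusted p = 0.0287). These groups too lay below every DMSO library, for which no share of all genes at 18 h is given.

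Single libraries decided each CBS call. The ibuprofen probe call at 6 h was lost without DMSO replicate 2 or 3 or ibuprofen probe replicate 1 or 2 (-0.56 to -0.55, adjusted p 0.113 to 0.142). The ibuprofen photocaged call at 18 h was lost without DMSO replicate 1 or 3 or any of its own 3 libraries (-0.79 to -0.53, 0.0502 to 0.315), and the ibufenac bolus call without DMSO replicate 1 or 3 (-0.63) or its own replicate 3, one of the libraries that stood apart (-0.41, adjusted p = 0.362). With CBS and CBSL summed the same 3 differences were -0.47 (adjusted p = 0.0293), -0.54 (0.0371) and -0.64 (0.00915). With trends on GC content and length removed from each library, the 6 h difference was -0.35 and not called (adjusted p = 0.156). The ibufenac bolus difference at 18 h was then -0.51 and not called either (adjusted p = 0.0515). The ibuprofen photocaged difference at 18 h was -0.54 and still called (adjusted p = 0.0313). CBS transcripts have 57.8% GC, the highest of the 7.

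GCLC, the catalytic subunit of glutamate-cysteine ligase, was called against DMSO in 0 of 18 single-time comparisons by edgeR and 0 by DESeq2, with unadjusted p under 0.05 in 2. Its libraries ran from 28.5 to 49.8 CPM over all 63, with a median of 36.5, and DMSO alone from 31.4 to 44.8. The nearest to a call was ibufenac probe at 6 h, at 37.1, 33.4 and 28.5 CPM against 39.7, 35 and 44.8 in DMSO, overlapping groups (-0.27, adjusted p = 0.0506). GCLC in ibufenac photocaged at 6 h was higher than in ibufenac bolus (0.34, adjusted p = 0.0198; 7.84% of all genes called) without being called against DMSO.

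GCLM, the modifier subunit, differed from GCLC in that 8 of its 18 single-time comparisons were called, all higher, and its order of arms differed from that of SLC7A11. At 6 h DMSO had 31, 34.1 and 31.4 CPM. Ibuprofen photocaged had 52.6, 58.8 and 52.2 CPM and ibufenac photocaged 54.4, 66.4 and 50.6, both above every DMSO library (0.76 ± 0.10, 1.69-fold, adjusted p = 2.41e-06, and 0.83 ± 0.10, 1.77-fold, 1.74e-07). Ibuprofen probe had 40.9, 40.2 and 38.5 CPM (0.31, 1.24-fold, adjusted p = 0.0389), and ibufenac probe 29.4, 27.7 and 31.6, overlapping DMSO (-0.12, 0.498). The highest SLC7A11 and CTH group at 6 h was thus the lowest GCLM group among the photocaged and probe arms. The ibuprofen probe call was lost without any of the DMSO libraries or ibuprofen probe replicate 1 or 2 (0.28 to 0.35, adjusted p 0.0667 to 0.13), and with GC and length trends removed (0.16, 0.346). On the log2(FPKM + 1) scale the ibuprofen photocaged difference at 6 h was not called (0.53, adjusted p = 0.144).

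At 18 h GCLM was called higher in 3 arms, at a time when SLC7A11 was called in none; a difference between the genes was not tested. Against the bolus of the same drug none of these 3 was called (0.24, 0.30 and 0.22, adjusted p 0.283, 0.448 and 0.39 for ibuprofen photocaged, ibufenac photocaged and ibufenac probe). DMSO had then 21.6, 23.9 and 24.9 CPM, lower than at 6 h (-0.46, adjusted p = 0.000986). Ibuprofen photocaged had 28.7, 32.7 and 35.1 CPM (0.46, 1.37-fold, adjusted p = 0.013), ibufenac photocaged 35, 30.7 and 35 (0.52, 1.43-fold, 0.00297) and ibufenac probe 32.8, 29.7 and 33 (0.44, 1.36-fold, 0.0104). All 9 of these libraries were above the DMSO libraries, as were those of ibuprofen probe at 29.6, 27.3 and 29.6, which was not called (0.30, adjusted p = 0.112). The share of all genes that separated this way at 18 h is not given. The ibuprofen photocaged call was lost without DMSO replicate 1 (0.40, adjusted p = 0.0645) or its own replicate 3 (0.39, 0.135), and the ibufenac probe call without DMSO replicate 1 (0.38, 0.0674) or its own replicate 3 (0.41, 0.0634). With GC and length trends removed, the ibuprofen photocaged difference at 18 h was 0.32 and not called (adjusted p = 0.0611). At 12 h ibufenac photocaged was called (40.2, 44.8 and 40.6 CPM against 29.4, 26.3 and 28.9 in DMSO; 0.57, 1.48-fold, adjusted p = 0.000564). Ibufenac probe was also called at 12 h (0.35, adjusted p = 0.0332), but not without any 1 of the 3 DMSO libraries or without its own replicate 1 or 2 (0.30 to 0.38, 0.0612 to 0.167). Ibuprofen photocaged at 12 h was not called (0.33, adjusted p = 0.13), but was with GC and length trends removed (0.40, 0.0206). Between 6 and 18 h the GCLM difference from DMSO grew in ibufenac probe (0.56 ± 0.15, adjusted p = 0.00948), a call lost with GC and length trends removed (0.39, 0.0617).

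GSS, which completes glutathione, was called at single times only in ibufenac probe. At 6 h it had 65.8, 73.9 and 73.4 CPM there against 50.9, 57.9 and 54.6 in DMSO (0.38 ± 0.09, 1.3-fold, adjusted p = 0.00205). At 12 h it had 62.7, 65.8 and 75.4 against 54.5, 45.1 and 54.9 (0.40, 1.32-fold, 0.00325), a call lost without DMSO replicate 2 (0.31, 0.0671). At 18 h ibufenac probe, at 65.7, 63.6 and 60.6, was still above the DMSO libraries of 52.8, 53.1 and 54.7 and was not called (0.24, adjusted p = 0.158). No share of all genes is given for such separation at 18 h. The time-averaged call of GSS in ibuprofen probe (0.17 ± 0.05, adjusted p = 0.0293) was lost without any of 5 libraries: DMSO replicate 1 at 6 h or replicate 2 at 12 h, or ibuprofen probe replicate 1 or 2 at 6 h or replicate 1 at 12 h (0.14 to 0.17, 0.0522 to 0.0819).

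GSR, the reductase that regenerates glutathione, was called against DMSO in 0 of 18 single-time comparisons by edgeR and 1 by DESeq2, with unadjusted p under 0.05 in 2. Its libraries ran from 62.5 to 92.8 CPM over all 63, with a median of 75.4. Ibuprofen probe at 6 h had 89.3, 85 and 80.8 CPM, above the DMSO libraries of 77.5, 68.1 and 74.9 but not called (0.21, adjusted p = 0.0909), and ibufenac probe 71.5, 72.1 and 70.3, within their range.

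**Figure D3:**
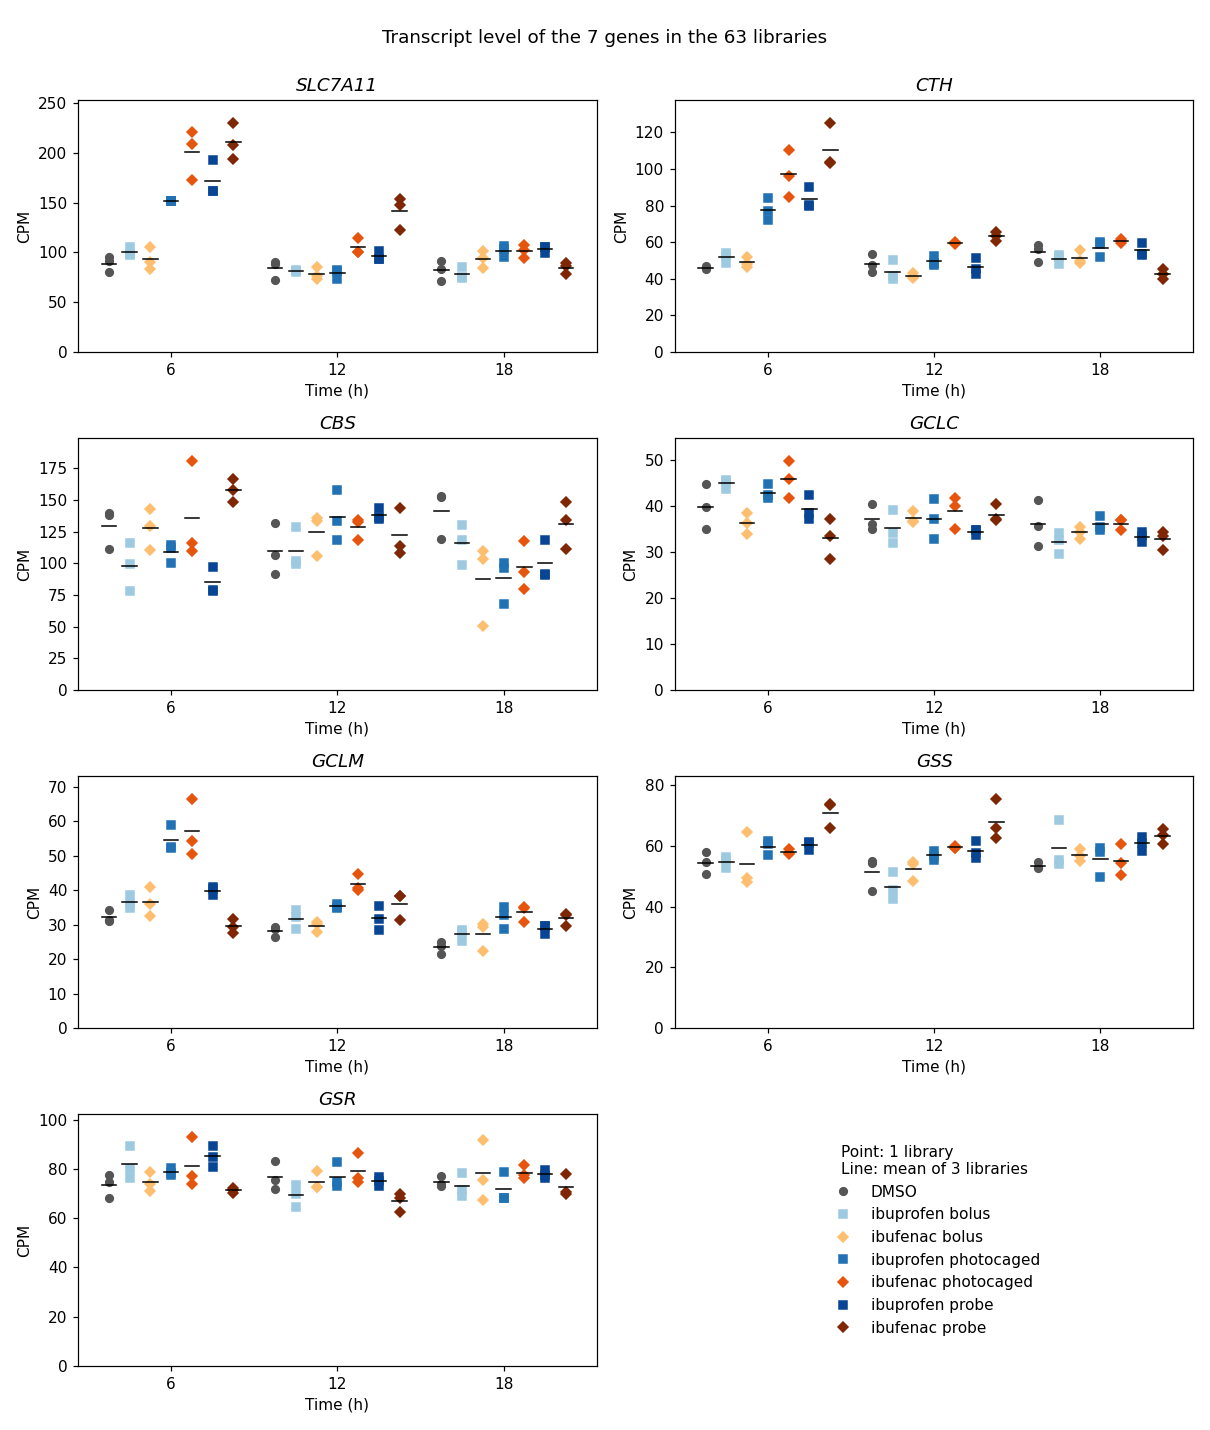
CPM of each of the 7 genes (1 panel per gene, linear axis from 0) in the 63 libraries at 6, 12 and 18 h. Points are libraries, lines the means of 3, colours and markers the 7 arms; SLC7A11 reaches 229.8 and CTH 125 in ibufenac probe at 6 h, while GCLC stays between 28.5 and 49.8 throughout.

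A comparison with the bolus of the same drug at the same time was chosen after the data had been seen. It keeps the named drug the same, while form, dose and light may differ. The labels used here do not give the bolus dose or which arms received light. SLC7A11 was higher than with bolus in all 4 photocaged and probe arms in the averages over time (0.31, 0.55, 0.47 and 0.63 for ibuprofen photocaged, ibufenac photocaged, ibuprofen probe and ibufenac probe), and so was CTH (0.31, 0.58, 0.30 and 0.50). In these comparisons 3.43%, 6.05%, 3.7% and 11.2% of all genes were called. GCLM was higher than with bolus in the photocaged arms only (0.33 and 0.48); against bolus the probe arms gave 0.07 for both drugs (adjusted p = 0.636 for ibuprofen and 0.533 for ibufenac), so that its averaged calls in the probe arms held against DMSO and not against bolus. At 6 h GCLM was lower with ibufenac probe than with ibufenac bolus (-0.30, adjusted p = 0.0363; 17.2% of all genes called). GSS in ibufenac probe was called against bolus too (0.31, adjusted p = 2.33e-05), and in ibuprofen probe it was not (0.17, 0.0536).

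The 2 drugs, which differ by the methyl group, were compared for the 7 genes within each of 3 forms at each of 3 times and averaged over time, and p-values were adjusted over all tested genes in each comparison. As bolus, none of the 7 genes was called between them, whether averaged (0% of all genes called) or at any time; the intervals of the single-time differences lay within -0.78 and 0.76, and the smallest adjusted p at 6 h was that of GCLC (-0.31, 0.0604). At 6, 12 and 18 h, 2.3%, 0.0362% and 0% of all genes were called between the bolus arms. Of these 21 bolus differences, 3 passed 0.05 before adjustment and 1 by DESeq2. As photocaged forms, SLC7A11 was higher with ibufenac in the average (0.27 ± 0.06, 95% interval 0.16 to 0.38, adjusted p = 0.0374), in a comparison where 0.0362% of all genes were called. That call was lost in 13 of the 18 fits that each left out 1 library of these arms. No gene of the 7, and 0% of all genes, was called between the photocaged forms at a single time: at 6 h the interval was 0.21 to 0.60 for SLC7A11 (adjusted p = 0.221) and 0.14 to 0.50 for CTH (0.39), so that equal responses are not shown either. Of the 21 single-time photocaged differences, 5 passed 0.05 before adjustment and 0 by DESeq2. With GC and length trends removed, SLC7A11 was called between the photocaged forms at 6 h (0.40, adjusted p = 0.0351) and in the average (0.26, 0.00193).

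Between the probe forms at 6 h all 7 genes were called, in a comparison where 23.6% of all tested genes were called and 35.9% did not overlap. Higher with ibufenac were SLC7A11 (0.29, adjusted p = 0.0216), CTH (0.41, 0.000486), CBS (0.89, 95% interval 0.51 to 1.28, 0.000468) and GSS (0.24, 0.0469). Lower with ibufenac were GCLM (-0.43, 0.00136), GCLC (-0.25, 0.0459) and GSR (-0.25, 0.0213). None of the 7 pairs of groups overlapped. CTH, CBS and GCLM were called in every fit that left out 1 library, and SLC7A11, GCLC, GSS and GSR lost their calls in 3, 4, 5 and 3 such fits; SLC7A11 lost its call without ibuprofen probe replicate 1 (0.25, adjusted p = 0.11) or 3 (0.25, 0.0915) or ibufenac probe replicate 1 (0.22, 0.125). These 2 groups also differed in their trend on GC content. The slopes were -0.28, -0.28 and -0.13 log2 per 10 points of GC in ibuprofen probe, and 0.07, 0.16 and 0.18 in ibufenac probe. The cause of that difference was not tested. With GC and length trends removed, SLC7A11 (0.56, adjusted p = 5.03e-07), CTH (0.55, 2.88e-06) and CBS (0.6, 0.00296) were called, and GCLM (-0.21, 0.146), GCLC (-0.08, 0.637), GSS (0.17, 0.203) and GSR (-0.13, 0.331) were not.

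At 12 h the probe forms differed in SLC7A11 (0.56, 95% interval 0.36 to 0.75, adjusted p = 0.000618) and CTH (0.44, 0.26 to 0.62, 0.00448), with 1.92% of all genes called; the CTH call was lost without ibuprofen probe replicate 3 (0.38, 0.0552). At 18 h edgeR called none of the 7 and 0% of all genes, while 1 of the 7 passed by DESeq2 and 3 before adjustment; SLC7A11 and CTH stood at -0.29 (0.702) and -0.38 (0.387). Averaged over time, GSR was called (-0.17, adjusted p = 0.036; 2.82% of all genes), a call lost in 11 of 18 fits that left out 1 library, and SLC7A11 was not (0.19, 0.0508); with GC and length trends removed SLC7A11 was called (0.26, 5.46e-05), and GSR was not (-0.14, 0.0883). The change of the drug difference from 6 to 18 h was called for SLC7A11 (-0.57, adjusted p = 0.0086), CTH (-0.79, 8.11e-05) and GCLM (0.57, 0.0144), where 5.46% of all genes were called. That contrast was added after the data had been seen. The GCLM call was lost with GC and length trends removed (0.37, adjusted p = 0.108), and the SLC7A11 call on the log2(FPKM + 1) scale (-0.45, 0.155).

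**Figure D4:**
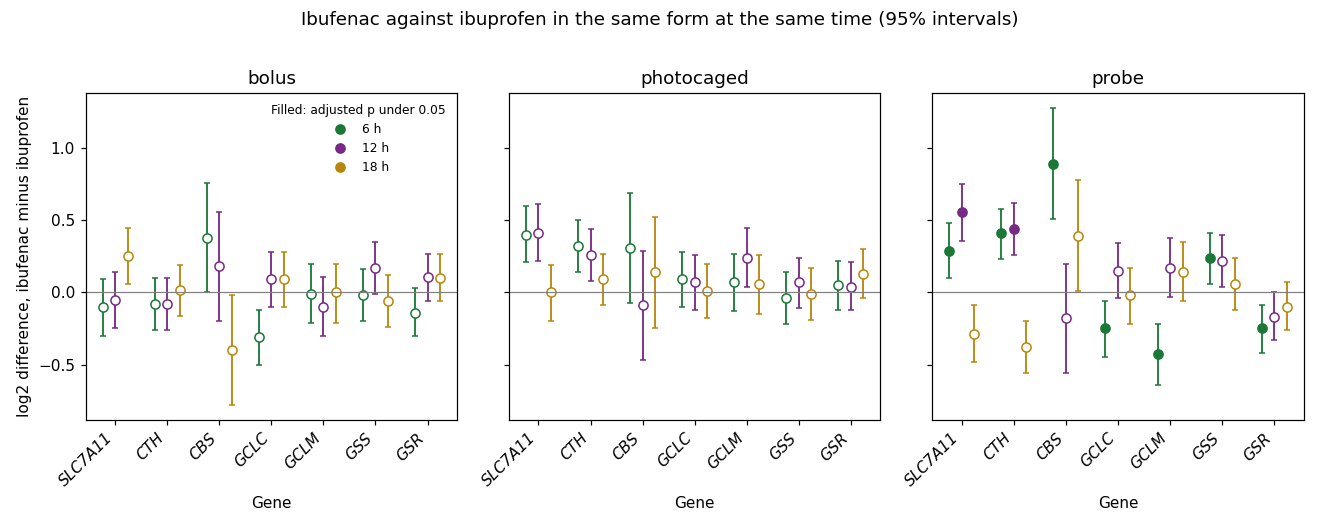
Log2 difference, ibufenac minus ibuprofen, for the 7 genes (horizontal axis) at 6, 12 and 18 h in the bolus, photocaged and probe forms, with 95% intervals; filled points have an adjusted p under 0.05. Filled points appear in the probe panel only, for all 7 genes at 6 h (CBS highest at 0.89) and for SLC7A11 and CTH at 12 h.

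Within a drug, the probe form was compared with the photocaged form. With ibufenac at 6 h, GCLM was lower as probe (-0.95, 95% interval -1.15 to -0.74, adjusted p = 1.13e-08), as was GCLC (-0.47, 0.00109), and GSS was higher (0.29, 0.0356); 7.38% of all genes were called. In the averages for ibufenac, GCLM (-0.42, adjusted p = 6.41e-06), GCLC (-0.21, 0.0199) and GSR (-0.18, 0.0272) were lower and GSS higher (0.23, 0.00774), against 2.68% of all genes. With GC and length trends removed, GCLC (-0.17, adjusted p = 0.0519) and GSR (-0.14, 0.0624) were not called in these averages. CTH (0.30, 0.0118) and SLC7A11 (0.22, 0.0498) were then called higher at 6 h, and GSR lower at 12 h (-0.27, 0.0409). SLC7A11 was higher as ibufenac probe at 12 h (0.43, adjusted p = 0.0122; 1.93% of all genes), and CTH lower at 18 h (-0.51, 0.0124; 0.00517% of all genes). With ibuprofen no gene of the 7 was called in the average (0.0982% of all genes; smallest adjusted p 0.0503, for GCLM at -0.25; 3 passed 0.05 before adjustment and 1 by DESeq2), and at 6 h GCLM was lower as probe (-0.45, adjusted p = 0.0395; 0.119% of all genes). With GC and length trends removed, GCLM was called in the ibuprofen average too (-0.28, adjusted p = 0.00458). Leaving out single libraries ended the call in 5 fits for GCLM with ibuprofen at 6 h, and, with ibufenac, in 4 for GCLC and 7 for GSR in the averages, 4 for GSS at 6 h, 4 for SLC7A11 at 12 h and 5 for CTH at 18 h. The drop of GCLM from photocaged to probe at 6 h was larger for ibufenac than for ibuprofen (-0.5 ± 0.14, adjusted p = 0.0222), where 9.96% of all genes were called. This contrast was added after the data had been seen. With GC and length trends removed this difference was -0.26 (adjusted p = 0.3). It was also not called without ibuprofen probe replicate 1 or 2, ibufenac photocaged replicate 1 or 2 or ibufenac probe replicate 2 (-0.53 to -0.38, 0.0538 to 0.104). The planned contrast, averaged over time, called none of the 7 genes, and GCLM stood at -0.16 (adjusted p = 0.616). Its smallest adjusted p among them was 0.311, and 2 passed 0.05 before adjustment. Of all 19352 tested genes it called 6.

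Among the other cystine and cysteine carriers, 7 of 8 were tested, and 1 rose in each of the 4 photocaged and probe arms in the averages over time: SLC1A4, a neutral amino acid transporter (0.45 and 0.71 as ibuprofen and ibufenac photocaged, 0.53 and 0.80 as probe). MFSD12, the lysosomal cysteine importer, fell with ibuprofen probe (-0.4, adjusted p = 0.01) and SLC1A1 with ibufenac probe (-0.68, adjusted p = 0.0223). In the methionine cycle, which feeds homocysteine to CBS, 8 of 11 genes were tested; 0, 0, 1 and 2 rose and 2, 1, 2 and 1 fell in ibuprofen photocaged, ibufenac photocaged, ibuprofen probe and ibufenac probe, where 4.28%, 7.49%, 8.43% and 13.2% of all genes were called. MAT2A, which makes S-adenosylmethionine, fell in all 4 arms (-0.22, -0.20, -0.28 and -0.30 in the same order). The other called genes of this list, among them those that rose, are not named here. None of the 9 genes of cysteine and sulfide breakdown was called in any arm's average by edgeR; unadjusted p was under 0.05 for 1 of them in ibuprofen photocaged, 3 in ibufenac photocaged and 0 in the other arms. At 6 h, named here after their values were seen, TST (-0.81, adjusted p = 0.0417) and MPST (-0.54, 0.0462) fell with ibuprofen probe and GOT1 rose with ibufenac probe (0.34, 0.0188), where 11.4% and 12.7% of all genes were called.

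Genes that degrade glutathione or use it were mostly not called. Of 9 tested in breakdown and recycling, ANPEP, an aminopeptidase, rose in ibuprofen photocaged (1.11), ibuprofen probe (1.22) and ibufenac probe (0.99). ANPEP was near the floor, with 1 to 35 counts a library and a median of 17, so the size of its differences is uncertain. CHAC1, which cleaves glutathione in the cytosol, rose in ibufenac probe (0.53, adjusted p = 0.00555). Of 24 tested glutathione-using enzymes, 1, 2, 1 and 3 rose and 0, 0, 0 and 1 fell in ibuprofen photocaged, ibufenac photocaged, ibuprofen probe and ibufenac probe; GPX8, a peroxidase of the endoplasmic reticulum, was among the risers in each (0.22, 0.30, 0.27 and 0.47). These counts are near the background, since 4.28%, 7.49%, 8.43% and 13.2% of all genes were called in these arms. Of 8 tested glutathione and conjugate transporters none rose and 1, 1, 2 and 1 fell; ABCC5, an exporter of organic anions and conjugates, fell in all 4 (-0.21, -0.17, -0.17 and -0.28).

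All 5 NRF2 reference targets were tested, and their median time-averaged difference was 0.41 and 0.74 in ibuprofen and ibufenac photocaged and -0.02 and 0.12 in ibuprofen and ibufenac probe, beside medians of -0.01 to 0 over all genes. Of the 5, 2, 3, 0 and 1 rose and 0, 0, 1 and 1 fell in that order, where 4.28%, 7.49%, 8.43% and 13.2% of all genes were called. HMOX1, which breaks down heme, rose with the photocaged forms (0.64 and 0.87), fell with ibuprofen probe (-0.32) and stood at 0.08 with ibufenac probe. TXNRD1, thioredoxin reductase, rose in 3 arms (0.32 and 0.56 photocaged, 0.12 ibufenac probe). The target that fell with ibufenac probe was neither HMOX1 nor TXNRD1. All 6 ATF4 reference targets were tested, with medians of 0.25 and 0.35 photocaged and 0.21 and 0.58 probe. Of them 3, 4, 3 and 5 rose, beside the same shares of all genes. ASNS, asparagine synthetase, rose in all 4 arms (0.39, 0.56, 0.58 and 0.88 in ibuprofen photocaged, ibufenac photocaged, ibuprofen probe and ibufenac probe), as did TRIB3 (0.30, 0.46, 0.33 and 0.98). Of 5 regulators tested, ATF4 rose in ibufenac photocaged (0.15), ibuprofen probe (0.10) and ibufenac probe (0.22), and NFE2L1 in ibufenac probe (0.18). Since all arms share the DMSO libraries, these columns are not independent of each other.

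Over the 63 libraries, log2 CPM of SLC7A11 and CTH correlated at 0.92, and over the 21 group means at 0.95. SLC7A11 was most like SLC38A1 (0.95), XPOT (0.92) and XBP1 (0.92), and CTH was most like XBP1 (0.92), SLC7A11 (0.92) and HSPA13 (0.88). GCLM was most like TXNRD1 (0.87), SSR3 (0.83) and SPCS3 (0.83), and correlated with SLC7A11 at 0.57 and with CTH at 0.48. GSS was most like PCK2 (0.75), PHGDH (0.74) and SNHG32 (0.74). CBS, at -0.02 with SLC7A11, was most like TMEM259, RNH1 and VPS28 (0.87 each), and GCLC and GSR had no gene above 0.71 and 0.69. These are Pearson coefficients given as descriptions, since the libraries share arms, times and depth differences. The CPM were not corrected for GC content, on which libraries had slopes between -0.28 and 0.21 log2 per 10 points of GC. CBS transcripts have 57.8% GC, and the part of such trends in these coefficients was not tested.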

How the data were processed

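Total RNA-seq of 63 libraries was used, with groups taken from the sample labels. The authors deposited estimated counts per gene and FPKM values (fragments scaled by gene length and library total), per the file headers. No aligner, counter or genome build is given in the sources used here. In the estimated counts 14.5% of values of at least 1 were not whole (tolerance 0.01), so they were rounded. All column headers carry 1 batch name and 1 date. FPKM as deposited by the authors served for levels between genes and as an alternative. The rest was computed with R 4.3.3: filterByExpr (minimum count 10) and TMM factors (0.91 to 1.11) in edgeR 4.0.16, then 1 quasi-likelihood fit over the 21 groups (42 residual degrees of freedom, 19352 genes), with contrasts against DMSO, between drugs, forms and times. The biological coefficient of variation was 0.159. Group differences averaged over time weight the 3 times equally. Gene names came from the RefSeq and GENCODE tables given (57754 and 462 more). Named genes are the 7 members, up to 4 genes of each list with the smallest p among those called in a time-averaged comparison with DMSO, and the 3 genes most like each member. Not every list gene that this rule gives is named in the text. The members and lists were chosen with earlier results of these data known. No pair of the 63 within-group pairs of libraries was within counting noise (chi-square per degree of freedom 5.09 to 57.8). Alternatives were DESeq2 1.42.0, limma 3.58.1 on log2(FPKM + 0.1) and log2(FPKM + 1), size factors (RLE), no filter, own libraries only, replicate blocks, GC and length trends, bolus as control, and each library left out, with the differences between contrasts added after the data were seen included; scripts were tested on simulated data. Estimated counts of near-identical or overlapping genes, here CBS and CBSL, depend on how the counter split reads.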

Additional observations from a re-analysis of the deposited data

Results flagged for a closer look

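In all, 11 differences between 2 contrasts passed a direct test of the difference in edgeR's fit (Benjamini-Hochberg adjustment over all tested genes); the smallest and largest adjusted p were 3.62e-13 and 0.0222. In 7 of them a gene's difference from DMSO changed between 6 and 18 h. SLC7A11, the cystine importer, changed by -0.87 ± 0.14 in ibufenac photocaged (18 h minus 6 h, log2) and by -1.2 ± 0.14 in ibufenac probe. CTH, the cysteine-releasing enzyme, changed by -0.7 ± 0.13 in ibuprofen photocaged, -0.93 ± 0.13 in ibufenac photocaged, -0.84 ± 0.13 in ibuprofen probe and -1.63 ± 0.13 in ibufenac probe. GCLM, the ligase modifier, changed in the other direction, by 0.56 ± 0.15, in ibufenac probe; with GC and length trends removed this was 0.39 and not called (adjusted p = 0.0617).

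The difference between ibufenac and ibuprofen as probe changed from 6 to 18 h by -0.57 for SLC7A11, -0.79 for CTH and 0.57 for GCLM; the GCLM value was 0.37 (adjusted p = 0.108) with GC and length trends removed. At 6 h the drug difference for GCLM was lower in the probe than in the photocaged form, by -0.5 ± 0.14, and by -0.26 (adjusted p = 0.3) with GC and length trends removed. Averaged over time, as planned, it was -0.16 and not called (adjusted p = 0.616). The contrasts of this paragraph other than the averaged one were added after the data had been seen.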

How the results depend on the processing

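Of 72 called differences of single genes none reversed under the 12 other settings or the 63 fits that left out 1 library. DESeq2 kept 71 and gave no adjusted p for the other (CTH, ibuprofen photocaged, 18 h minus 6 h). RLE factors lost 2, the libraries that stand apart left out together 1, no filter 10, GC and length trends 14, own libraries only 20, FPKM with pseudocount 0.1 and 1 lost 26 and 27, and bolus as control kept 26 and lost 11 of those it could give. Of 320 differences not called, 14 were called with GC and length trends removed. The cause of these changes was not tested.

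Counts of calls among 21 (7 genes at 3 times) moved as follows. Ibuprofen photocaged, 5 as reported, gave 2 with either FPKM pseudocount, 3 with own libraries and 3 against bolus. Ibufenac photocaged, 5, gave 8 with DESeq2, 8 without filter and 3 with FPKM + 1. Ibufenac probe, 9, gave 5 with either FPKM pseudocount and 4 with own libraries. Ibuprofen bolus, 0, gave 1 without filter, and ibufenac bolus, 1, gave 0 with own libraries, with GC trends removed or without both libraries that stand apart. Leaving out 1 library gave 3 to 5, 5 to 6, 7 to 10, 0 to 0 and 0 to 1 in the same order, and 2 to 5 for ibuprofen probe (4).

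Among time-averaged calls of 7, ibuprofen bolus (0) gave 1 without filter and ibuprofen probe (4) gave 2 against bolus. Ibufenac against ibuprofen photocaged (1) gave 2 with DESeq2 or no filter and 0 with FPKM (either pseudocount) or own libraries. Ibufenac against ibuprofen probe (1) gave 4 with DESeq2, own libraries, a block within each time or without both libraries that stand apart, 3 with RLE factors, GC trends removed or no filter, 2 with FPKM + 0.1 and 0 with FPKM + 1. Probe against photocaged gave, for ibufenac (4), 1 with either FPKM pseudocount and 2 with GC trends removed or own libraries; for ibuprofen (0), 1 with DESeq2, GC trends removed, own libraries, no filter or without both libraries that stand apart. Leaving out 1 library gave 0 to 2, 0 to 3, 2 to 4 and 0 to 1 for these 4 comparisons, 3 to 4 for ibuprofen probe and the reported count for the other arms (3 to 3 for both photocaged arms, 4 to 4 for ibufenac probe, 0 to 0 for both bolus arms and between them).

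The replicate numbers were not taken to pair libraries, since not every pair of same-numbered libraries correlated above 0.1: their deviations from group means correlated at 0.01, 0 and 0 on average at 6, 12 and 18 h, between -0.13 and 0.21. At those times 13, 4 and 11 of 21 libraries correlated best with their own number, where 7 would if the number carried no information, which is a hint from the data and not from the design. With the number as a replicate block, 70 of the 72 calls were kept; GCLC between the probe forms at 6 h (-0.25, adjusted p = 0.0511) and GCLM between ibuprofen probe and photocaged at 6 h (-0.45, 0.0508) were not.

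With 3 libraries a group, the standard error of a single-time difference was about 0.10 for SLC7A11 and GCLM, and 0.19 for CBS. CBS cannot be separated from CBSL. Transcript levels say nothing of protein, cysteine or glutathione content.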
